A study of Homo sapiens with 6 samples.

Results

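The Janus kinases (JAKs) and the signal transducers and activators of transcription (STATs) were followed in human K562 erythroleukemia cells in which a long non-coding RNA had been knocked down. The 8 genes described are JAK1, JAK2, TYK2, STAT2, STAT3, STAT5A, STAT5B and STAT6. They were chosen by gene name, through the RefSeq protein accessions that belong to each, and make up 8 of 19053 genes matched to a symbol and 40 of 109018 accession rows. K562 is a chronic myeloid leukemia line that carries the BCR-ABL fusion kinase.

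Total RNA was sequenced from 6 libraries, 3 from each of 2 groups of K562 cells made stable with a lentiviral hairpin vector. The control cells, sh-luc, carried a hairpin against luciferase. The knockdown cells carried a hairpin that the labels call sh-lncRNA-IIRX and the study calls sh-IUR-5, the name used here, against transcript 5 of the imatinib-upregulated lncRNA family. No drug treatment is named for either group, and 1 hairpin against the lncRNA was used, so effects of this hairpin on other transcripts cannot be told apart from those of the knockdown. The study names 3 independent groups of cells as the source of the RNA. The comparison asks how the transcripts of the JAK-STAT pathway differ between the knockdown and the control cells.

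In JAK-STAT signalling, a cytokine receptor brings bound JAK kinases together, the kinases phosphorylate the receptor and then the STAT proteins, and paired STATs enter the nucleus and act on transcription. SOCS proteins, PIAS proteins and several phosphatases damp the pathway. BCR-ABL can phosphorylate STAT5 in the absence of cytokine, so STAT5A and STAT5B hold a central place in this leukemia, and JAK2 is the kinase of the erythropoietin receptor in erythroid cells. The data here measure transcripts only, not phosphorylation. In separate Western blots the study reported more STAT5 phosphorylation after lncRNA-IUR-5 depletion and less after its overexpression.

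Each library held between 21023739 and 31481109 reads over all rows. The K562 erythroid markers GATA1, TAL1, KLF1, LMO2, HBG1, HBG2, HBE1, HBZ and TFRC each had a mean summed RPKM of at least 1. They did not stay level: edgeR called GATA1 (log2 -0.33, adjusted p = 0.0197) and the globins HBG2 (-0.51), HBG1 (-0.53), HBE1 (-0.67) and HBZ (-0.85) lower in sh-IUR-5 and TAL1 (0.75) and TFRC (1.14) higher, and the part of this shift in the values below was not tested. Of 11 markers of other cells, only the epithelial genes EPCAM and KRT19 did, and MS4A1 had no read in any library. The lncRNA itself has no row among protein accessions, so its knockdown could not be checked here. The labels number library 1 of each group as one series and libraries 2 and 3 as another, and library 1 stood apart. Over genes with at least 50 reads, the chi-square per gene was 4.91 between sh-luc libraries 2 and 3 and 3.26 between those of sh-IUR-5, but between 9.42 and 18.4 for pairs with library 1. A value near 1 would be counting noise alone. A higher value does not show that 2 libraries came from separate cultures. Whether libraries 2 and 3 of a group did was not tested. The main fit counted each library singly, and a fit with libraries 2 and 3 of each group summed is given at the end. Of 8944 genes tested, 49.7% passed the test described below.

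The hairpin target and the stretches that matter for telling the STAT5 genes apart are shown first. The sh-IUR-5 target lies at chr11:95232933-95232953 (hg38, plus strand), in exon 2 of transcript LNCRNA-IUR-205 of the lncRNA gene LNCRNA-IUR in GENCODE 44. It is shown because it is the only designed difference between the groups beside the control hairpin.
sh-IUR-5 target: gctagtatcaggtttaaatag

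STAT5A and STAT5B lie next to each other on chromosome 17 and encode closely related proteins. Of the 50-base windows along the coding sequence, 507 were identical in both genes, 21.7% of those of STAT5A and 21.9% of those of STAT5B. No other pair of the 8 genes shared one. A read from such a window cannot be assigned to either gene by sequence, so the separate levels of STAT5A and STAT5B are uncertain to that extent. The 79-base stretch below is an example, identical in both genes and coding in both. It lies at chr17:42300144-42300222 on the plus strand in STAT5A and at chr17:42219371-42219449 on the minus strand in STAT5B. The capitals mark the target of a single hairpin, sh-STAT5, with which the study silenced STAT5 in other experiments.
Both STAT5 genes: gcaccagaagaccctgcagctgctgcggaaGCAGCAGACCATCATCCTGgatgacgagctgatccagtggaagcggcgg

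The ends of the coding sequences differ, and reads there do tell the genes apart. The last 60 coding bases before the stop codon are at chr17:42310607-42310666 (plus strand) in STAT5A and at chr17:42201741-42201800 (minus strand) in STAT5B.
STAT5A: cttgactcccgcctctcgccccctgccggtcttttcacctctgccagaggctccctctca
STAT5B: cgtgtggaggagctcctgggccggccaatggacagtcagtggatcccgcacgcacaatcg

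The annotated spans (GENCODE 44, hg38) place STAT5B at chr17:42199176-42288633 on the minus strand, STAT5A at chr17:42287547-42311943 on the plus strand and STAT3 at chr17:42313324-42388540 on the minus strand. STAT5A and STAT5B share 1087 bases of opposite strands, none of them coding, and 1381 bases separate STAT5A from STAT3. STAT2 (chr12:56341597-56360203) and STAT6 (chr12:57095408-57132139) are both on the minus strand of chromosome 12, 735205 bases apart. JAK1 is at chr1:64833223-65067754 (minus strand), JAK2 at chr9:4984390-5129948 (plus strand) and TYK2 at chr19:10350533-10380608 (minus strand).

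Levels are given as RPKM (reads divided by coding length in kilobases and by the library total in megareads), summed over the rows of a gene. In the sh-luc libraries STAT5A and STAT5B had the highest levels of the 8 genes, 33.6 ± 1.60 and 33.0 ± 3.10 (SD, n = 3), and their ranges overlapped. TYK2 (21.2 ± 1.38) and JAK2 (18.95 ± 0.727) came next, also with overlapping ranges. JAK1 (7.50 ± 0.407) and STAT2 (7.20 ± 1.62) overlapped as well, while STAT3 (5.79 ± 0.186) and STAT6 (4.61 ± 0.487) each stood below their upper neighbour without overlap. STAT5A and STAT5B together held between 78.2% and 80.5% of the summed RPKM of the 5 STAT genes in sh-luc, and between 80.0% and 81.0% in sh-IUR-5. Levels of genes with several rows depend on how the authors' counting shared reads among those rows, a rule not given in the sources used here.

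The order differed in the sh-IUR-5 libraries, where STAT5B (53.5 ± 8.39) and STAT5A (47.0 ± 5.56) overlapped at the top and JAK2 (34.0 ± 3.64) stood above TYK2 (24.0 ± 3.76) without overlap. JAK1 (16.1 ± 1.19) stood above STAT2 (10.5 ± 1.05) without overlap. STAT2 and STAT3 (8.42 ± 1.24) overlapped, and STAT6 (5.47 ± 1.26) was again lowest.

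**Figure D1:**
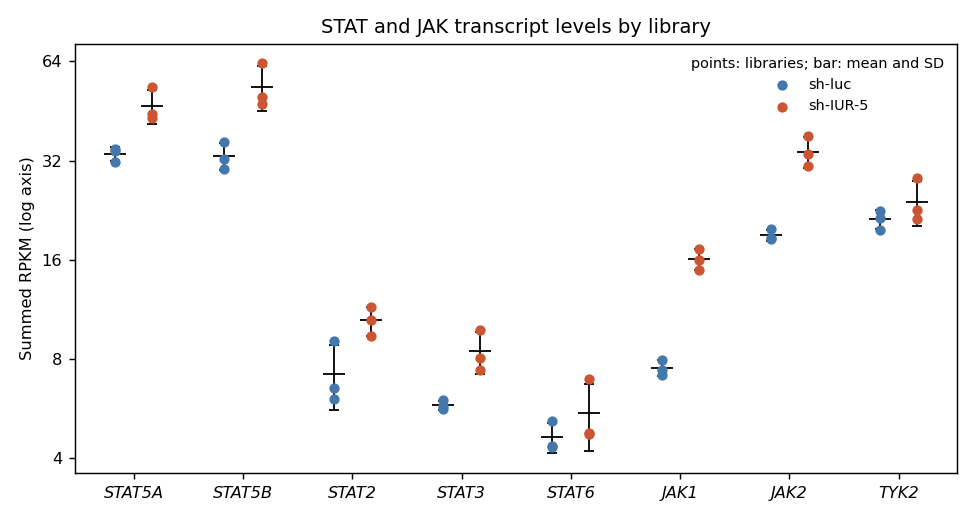
Summed RPKM (log axis) of the 5 STAT and 3 JAK genes in the 3 sh-luc and 3 sh-IUR-5 libraries. Points are libraries and black bars the mean and SD. The groups do not overlap for 6 genes and overlap for STAT6 and TYK2.

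In the sh-IUR-5 libraries, 5 of the 8 genes rose and none fell: JAK1, JAK2, STAT5B, STAT3 and STAT5A. The test was edgeR's quasi-likelihood test on reads summed per gene, scaled between libraries by TMM (trimmed mean of M values), with Benjamini-Hochberg adjustment over all 8944 genes and a threshold of 0.05. Among those genes 26.4% were called higher and 23.2% lower. No member was lower at an unadjusted p under 0.05 or in DESeq2 either (0 of 8). The median log2 fold change was 0.36 over the 8 genes and 0.015 over all genes tested. The summed RPKM of the groups did not overlap for 6 of the 8 genes, with sh-IUR-5 higher in each, as against 60.3% of all genes tested in either direction and 45.5% with sh-IUR-5 higher. The p-values measure the spread between these libraries, which may be technical, and in bulk RNA fewer cells of a type and less RNA per cell cannot be told apart.

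JAK1, the kinase that serves interferon receptors and the gp130 family of cytokine receptors, showed the largest change of the 8. In sh-luc its summed RPKM was 7.95, 7.39 and 7.15, as against 17.3, 14.9 and 16.0 in sh-IUR-5. Every sh-IUR-5 library was above every sh-luc library. The fold change was 1.90, a log2 fold change of 0.93 ± 0.079 (SE, adjusted p = 1.96e-05, edgeR). It exceeded the log2 fold change of 97.9% of the genes tested. JAK1 was counted from 521 to 1884 reads per library.

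JAK2, the kinase of the erythropoietin and thrombopoietin receptors, rose 1.61-fold (log2 0.69 ± 0.077 SE, adjusted p = 5.2e-05, edgeR). The libraries stood at a summed RPKM of 19.8, 18.7 and 18.4 in sh-luc and 37.9, 30.7 and 33.4 in sh-IUR-5. The groups were well apart, and library 1 of sh-IUR-5 was the highest of the 6.

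TYK2, the kinase that pairs with JAK1 or JAK2 at interferon and interleukin receptors, did not pass the test. Its summed RPKM was 22.5, 19.7 and 21.4 in sh-luc and 28.3, 22.6 and 21.2 in sh-IUR-5, so that the groups overlapped. The log2 fold change was 0.017 ± 0.098 (SE, adjusted p = 0.896, edgeR). As a share of the summed RPKM of JAK1, JAK2 and TYK2, TYK2 took between 43.1% and 45.5% in sh-luc and between 30.0% and 33.9% in sh-IUR-5. JAK3, the kinase of the common gamma chain receptors, had at most 2 reads in any library and was not tested.

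STAT5B, one of the STAT5 proteins that act downstream of JAK2 and BCR-ABL, rose 1.44-fold (log2 0.52 ± 0.10 SE, adjusted p = 0.00136, edgeR). The summed RPKM was 36.3, 30.2 and 32.4 in sh-luc and 63.1, 47.5 and 49.9 in sh-IUR-5. The groups did not overlap, and library 1 was the highest of its group in both.

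STAT5A, its close paralog, rose 1.24-fold (log2 0.31 ± 0.080 SE, adjusted p = 0.00759, edgeR). Its summed RPKM was 34.7, 31.7 and 34.2 in sh-luc and 53.4, 44.4 and 43.2 in sh-IUR-5, again without overlap. Of the genes tested, 75.3% had a smaller log2 fold change than STAT5A and 87.7% a smaller one than STAT5B.

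STAT3, which acts downstream of gp130 receptors, rose 1.29-fold (log2 0.37 ± 0.11 SE, adjusted p = 0.0143, edgeR). By library, the summed RPKM was 5.62, 5.99 and 5.76 in sh-luc and 9.80, 7.39 and 8.06 in sh-IUR-5. The groups did not overlap. In libraries 2 and 3 alone, an alternative added after seeing the data, STAT3 just missed the threshold (log2 0.24, adjusted p = 0.0536, edgeR). STAT3 had between 273 and 694 reads per library, fewer than the STAT5 genes, and with the row holding the most reads in place of the sum it did not pass (log2 0.32, adjusted p = 0.124, edgeR).

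STAT2, which acts with IRF9 in the response to type I interferon, came close to the threshold without passing it (log2 0.35 ± 0.14 SE, adjusted p = 0.0511, edgeR). The level was 9.05, 6.50 and 6.05 RPKM (summed) in sh-luc and 11.5, 9.38 and 10.5 in sh-IUR-5. Library 1 of sh-luc was the highest of its group and close to the lowest of the other. Without it the log2 fold change was 0.55 (adjusted p = 0.00184, edgeR), and DESeq2 on all 6 libraries gave an adjusted p of 0.0421. Without sh-luc library 3 it was 0.24 (adjusted p = 0.198, edgeR), without sh-IUR-5 library 1 it was 0.29 (adjusted p = 0.11, edgeR), and with trends on GC content and length removed it was 0.19 (adjusted p = 0.254, edgeR). With the label series as a term it was 0.36 (adjusted p = 0.000862, edgeR). With the replicate number as a block it was also 0.36 (adjusted p = 0.000795, edgeR). STAT2 passed in 9 of 24 alternatives.

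STAT6, the factor of interleukin 4 and 13 signalling, did not pass the test (log2 0.086 ± 0.15 SE, adjusted p = 0.651, edgeR). Its summed RPKM was 5.17, 4.30 and 4.36 in sh-luc and 6.92, 4.72 and 4.77 in sh-IUR-5. The groups overlapped, and without library 1 of sh-IUR-5 the log2 fold change was -0.11.

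Within the label series, the values of the members were alike in direction for 6 of 8. In libraries 2 and 3 alone, edgeR gave log2 fold changes of 0.94 for JAK1 (adjusted p = 3.31e-11), 0.65 for JAK2 (adjusted p = 1.75e-09), 0.49 for STAT5B (adjusted p = 2.62e-07), 0.26 for STAT5A (adjusted p = 0.00101) and 0.49 for STAT2 (adjusted p = 9.05e-05). STAT6 (log2 -0.011) and TYK2 (log2 -0.052) did not pass there. The p-values of that fit measure only the spread between libraries 2 and 3 of a group, within 1 series. That spread may be smaller than the spread between separate cultures. In library 1, with 1 library of each group and no test, the log2 ratio was 0.91 for JAK1, 0.75 for JAK2, 0.59 for STAT5B, 0.41 for STAT5A, 0.59 for STAT3 and 0.14 for STAT2.

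The scaling between libraries and the base composition of the genes bear on these values. With total reads alone as the scale, the log2 fold changes of the members were larger by about the same amount, STAT2 passed as well (log2 0.53, adjusted p = 0.00945, edgeR), and 3700 genes were called higher and 1092 lower, against 2363 and 2078. Fold changes also moved with the GC content of the coding sequence over all genes, with a median log2 fold change of 0.15 in the fifth of genes with least GC and -0.11 in the fifth with most. The members range from 38.8% GC in JAK2 and 47.9% in JAK1 through 51.5% in STAT3, 52.5% in STAT2, 55.1% in STAT5B, 57.6% in STAT6 and 58.7% in STAT5A to 62.1% in TYK2. With trends on GC content and length removed, an alternative chosen after seeing the data, 4 of 8 members rose and 0 fell, beside 48.5% of 8834 genes called, 22.2% higher and 26.3% lower. These were JAK1 (log2 0.65, adjusted p = 6.92e-05), JAK2 (log2 0.41, adjusted p = 0.00192), STAT5B (log2 0.41, adjusted p = 0.00294) and STAT5A (log2 0.25, adjusted p = 0.00565), all by edgeR. STAT3 did not pass there (log2 0.19, adjusted p = 0.122, edgeR). With the trend on length alone removed, neither STAT3 (log2 0.21, adjusted p = 0.11) nor STAT5A (log2 0.15, adjusted p = 0.131) passed in edgeR.

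**Figure D2:**
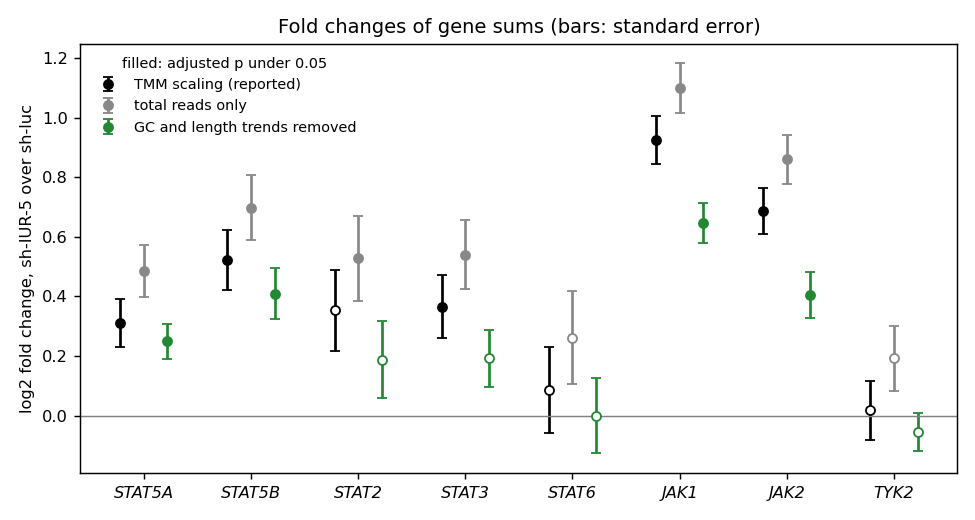
Log2 fold change of sh-IUR-5 over sh-luc for the summed reads of each gene, with TMM scaling, with total reads as the scale, and with trends on GC content and length removed. Bars are standard errors, and filled points have an adjusted p under 0.05 in edgeR. JAK1, JAK2, STAT5A and STAT5B are filled in all 3 fits, and STAT6 and TYK2 in none.

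Ratios between genes within a library do not depend on the scaling between libraries. The log2 ratio of STAT5B to STAT5A reads was -0.14, -0.26 and -0.28 in sh-luc and 0.046, -0.094 and 0.0040 in sh-IUR-5. The groups did not overlap, and their means differed by 0.21. STAT5B held between 45.2% and 47.7% of the reads of both STAT5 genes in sh-luc and between 48.4% and 50.8% in sh-IUR-5. With 3 libraries against 3, an exact two-sided permutation test cannot go below 0.1, the p found here, which became 0.14 after Benjamini-Hochberg adjustment over the 7 ratios compared. The ratios were not adjusted for GC content.

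STAT5A and STAT5B together, set against the other members, gave ratios that differed in direction. Against TYK2 the log2 ratio was 1.17 ± 0.013 (SD, n = 3) in sh-luc and 1.57 ± 0.061 in sh-IUR-5, and against STAT6 it was 3.72 ± 0.080 and 4.07 ± 0.13. Against JAK1 it was lower in sh-IUR-5, at 1.97 ± 0.11 beside 2.49 ± 0.076, and against JAK2 likewise, at 1.11 ± 0.077 beside 1.39 ± 0.063. None of these 4 ratios overlapped between groups, each with the smallest p the exact permutation test allows (p = 0.1, adjusted 0.14). How often ratios between other pairs of genes separate the groups was not counted. Of single genes tested, 60.3% did not overlap in either direction. The separation of these ratios, and of STAT5B over STAT5A, is therefore not shown to be particular to these genes. Against STAT2 and STAT3 the groups overlapped, with mean differences of 0.035 (exact permutation p = 0.8) and 0.054 (exact permutation p = 0.7).

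**Figure D3:**
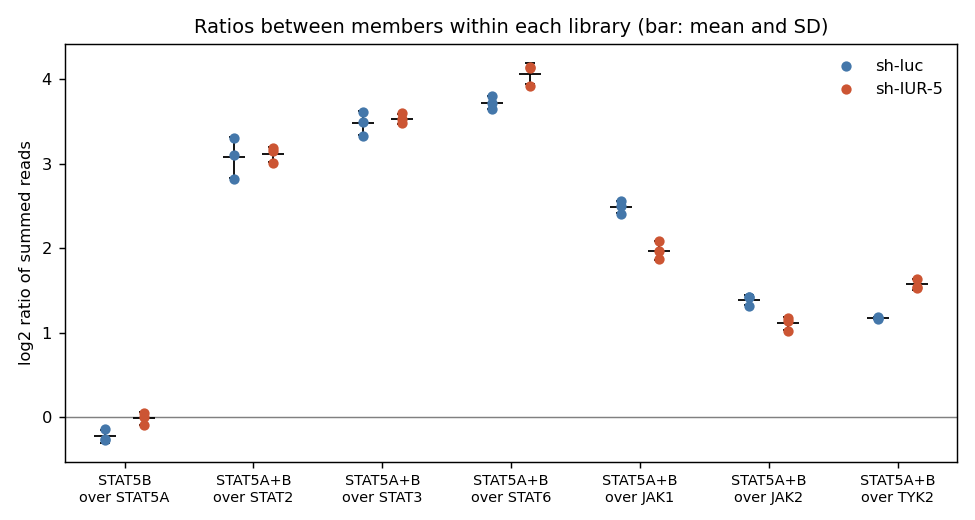
Log2 ratio of summed reads between members within each library. Points are the 3 sh-luc and 3 sh-IUR-5 libraries and black bars the mean and SD. STAT5 reads were lower against JAK1 and JAK2 and higher against TYK2 and STAT6 in sh-IUR-5, and overlapped against STAT2 and STAT3.

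The accession rows of each gene were also read singly. Of the 40 rows, 39 had a mean RPKM of at least 1 and were tested, and the other, a STAT6 row, had a mean RPKM of 0.989. Of these 39 rows, 24 were called higher and 0 lower by edgeR, among 38204 rows of which 37.3% were called, 19.2% higher and 18.1% lower. No row was called lower at an unadjusted p under 0.05 or by DESeq2 (0 rows). All 8 rows of JAK1, all 7 of JAK2, all 4 of STAT5A and all 3 of STAT5B rose. By contrast, 1 of 5 STAT2 rows and 1 of 4 STAT3 rows passed, and 0 of 4 STAT6 and 0 of 4 TYK2 rows. Rows entered on their mean over all 6 libraries. Most JAK1 rows had a mean RPKM under 1 in sh-luc (0.864 in the lowest) and entered through sh-IUR-5. With no filter, 22 of 40 rows were called higher and 0 lower by edgeR. All rows of JAK1, JAK2 and STAT5B passed there, but most STAT5A rows did not (adjusted p from 0.0409 to 0.153, edgeR). Rows of a gene may share reads and are not taken as independent measurements. Between rows of equal length, read numbers differed by no more than counting noise in 6 of 7 sets (chi-square per degree of freedom 0.205 to 0.958), and by more in TYK2 (2.10).

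Row usage asks whether the rows of a gene differ in fold change. None of the 8 genes passed the edgeR test of row usage (0 of 8, and 0 at an unadjusted p under 0.05, the lowest unadjusted p being 0.635 in STAT3), beside 1.71% of 5805 genes. Since the counting may have spread reads among rows, which would even them out, this says little about protein forms. The log2 fold changes of single rows lay between 0.73 and 1.11 in JAK1, between 0.45 and 0.79 in JAK2, between 0.49 and 0.52 in STAT5B and between 0.26 and 0.32 in STAT5A. They ranged more widely, or across 0, in STAT2 (0.083 to 0.53), STAT3 (0.21 to 0.60), STAT6 (-0.26 to 0.21) and TYK2 (-0.11 to 0.14).

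**Figure D4:**
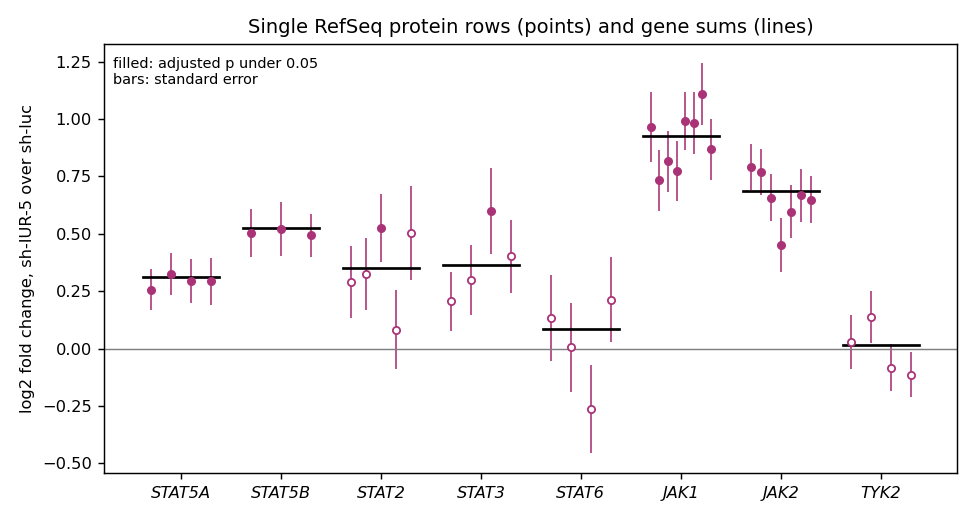
Log2 fold change of each tested RefSeq protein row (points, with standard error) and of the gene's summed reads (black lines). Filled points have an adjusted p under 0.05 in edgeR. All rows of JAK1, JAK2, STAT5A and STAT5B are filled, 1 row each of STAT2 and STAT3, and none of STAT6 or TYK2.

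The promoters of the members were searched for the STAT palindrome TTCNNNGAA, which reads the same on both strands. It was found in 0 of 15 RefSeq promoter windows of the 8 genes (GRCh38.p14, 300 bases each), beside 7.66% of 35116 windows of all genes. Such a count describes these windows only.

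Among the genes whose pattern over the 6 libraries was most like that of STAT5A were ARHGAP6, KIF5A, FURIN and DYNC1H1, with Pearson's r of log2 scaled counts from 0.995 to 0.998. For STAT5B they were TBC1D14, BMP2K, SH3BGRL, ELOVL6 and ARID1A, with r from 0.997 to 0.999. These are descriptions over 6 libraries that share one knockdown.

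STAT4, a STAT of interleukin 12 signalling that is not among the 8 genes, had at most 1 read in any library and was not tested.

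Of 24 cytokine receptor genes, 11 were tested, of which 2 rose and 3 fell, beside 26.4% higher and 23.2% lower among all genes tested, so the counts do not set receptors apart. The interferon receptor chains IFNAR1 (log2 0.27 ± 0.085 SE, adjusted p = 0.0206) and IFNGR1 (log2 0.32 ± 0.11 SE, adjusted p = 0.0275) rose in edgeR, but neither passed with the GC and length trends removed (0 receptors called higher). The interleukin 6 receptor IL6R fell, at 4.76 ± 0.732 RPKM (SD, n = 3) in sh-luc and 2.52 ± 0.710 in sh-IUR-5 (log2 -1.11, adjusted p = 0.00156, edgeR). CSF2RA, the alpha chain of the GM-CSF receptor, fell (log2 -0.84, adjusted p = 2.01e-05, edgeR), and so did the leptin receptor LEPR (log2 -0.49, adjusted p = 0.000346, edgeR). LEPR shares its first exons with a neighbouring gene, so its reads are uncertain. The median log2 fold change of the tested receptors was -0.042. The erythropoietin receptor EPOR, which binds JAK2, was at 27.2 ± 3.71 RPKM in sh-luc and 28.6 ± 7.95 in sh-IUR-5 and did not pass (log2 -0.10 ± 0.15 SE, adjusted p = 0.608, edgeR). Its RPKM, scaled to total reads, and its TMM-scaled fold change thus differ in sign.

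Of 20 inhibitors and phosphatases, 11 were tested, of which 7 rose and 0 fell (none lower at an unadjusted p under 0.05 or in DESeq2), with a median log2 fold change of 0.52, beside 26.4% higher and 23.2% lower and a median of 0.015 among all genes tested. SOCS5, a suppressor of cytokine signalling, rose from 1.47 ± 0.152 to 3.16 ± 0.404 RPKM (log2 0.93 ± 0.17 SE, adjusted p = 0.00116, edgeR). CISH, a feedback inhibitor that STAT5 induces, rose from 1.42 ± 0.0826 to 2.56 ± 0.561 RPKM (log2 0.69 ± 0.24 SE, adjusted p = 0.0301, edgeR). These are sums over rows, and the filter asks for a mean of at least 1 RPKM in a single row over all 6 libraries. CISH may thus have entered only through sh-IUR-5, and its rise would then not be independent of the filter. With a summed RPKM of at least 1 as the filter, added after seeing the data, CISH gave log2 0.65 (adjusted p = 0.0362, edgeR). Its sh-luc mean alone meets that filter. PTPN11, the phosphatase SHP2, rose from 12.2 ± 0.593 to 20.6 ± 1.02 RPKM (log2 0.59 ± 0.086 SE, adjusted p = 0.000266, edgeR). The other 4 that rose were SOCS2, PIAS1, PIAS3 and PTPN1, and with GC and length trends removed 7 rose and 1 fell, beside 22.2% higher and 26.3% lower of 8834 genes. The 1 was the phosphatase gene PTPN2, named after its values were seen (log2 -0.22, adjusted p = 0.0103, edgeR).

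Of 16 partners and adaptors, 15 were tested, of which 11 rose and 1 fell, with a median log2 fold change of 0.51, beside 26.4% higher and 23.2% lower among all genes tested. SOS1, which activates RAS, rose from 1.98 ± 0.223 to 4.46 ± 0.662 RPKM (log2 1.00 ± 0.12 SE, adjusted p = 9.16e-05, edgeR). As a sum over rows, SOS1 may like CISH have met the filter only through sh-IUR-5. With the filter on the summed RPKM, which its sh-luc mean alone meets, SOS1 gave log2 0.96 (adjusted p = 8.79e-05, edgeR). CRKL, an adaptor and prominent substrate of BCR-ABL, was at 31.2, 30.0 and 31.5 RPKM in sh-luc and 71.6, 63.5 and 67.7 in sh-IUR-5 (log2 0.96 ± 0.071 SE, adjusted p = 1.86e-05, edgeR). GAB2, a docking protein, rose from 2.06 ± 0.136 to 3.88 ± 0.740 RPKM (log2 0.75 ± 0.15 SE, adjusted p = 0.00187, edgeR). SMARCA4, the ATPase of the BAF chromatin remodelling complex, fell from 33.9 ± 0.580 to 30.0 ± 0.520 RPKM (log2 -0.35 ± 0.061 SE, adjusted p = 0.000773, edgeR). The nuclear import receptors KPNA1 and KPNA3 and the coactivators EP300 and NCOA1 were among the risers, and EP300 and NCOA1 did not pass with the GC and length trends removed. In that fit 9 of the 15 rose and 1 fell, with a median of 0.30, beside 22.2% higher and 26.3% lower of 8834 genes. PIAS3 counts as a riser both here and among the inhibitors.

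Of 20 genes listed as STAT5 targets, 12 were tested, of which 5 rose and 0 fell (none lower at an unadjusted p under 0.05 or in DESeq2), with a median log2 fold change of 0.33, beside 26.4% higher and 23.2% lower among all genes tested. TFRC, which encodes the transferrin receptor CD71 and is the target the study names, was at 68.7, 68.6 and 65.4 RPKM in sh-luc and 190.1, 150.2 and 162.8 in sh-IUR-5 (log2 1.14 ± 0.080 SE, adjusted p = 1.86e-05, edgeR). The study chose TFRC on these samples, so that value is not independent evidence of the list's direction. MCL1, an anti-apoptotic BCL2 family member, rose from 24.9 ± 2.33 to 50.2 ± 4.34 RPKM (log2 0.83 ± 0.093 SE, adjusted p = 5.1e-05, edgeR). CISH and SOCS2, which also count as inhibitors, and the cyclin CCND3 (log2 0.35 ± 0.096 SE, adjusted p = 0.0101, edgeR) were the others. For CISH the limit of the filter given above holds here too. The kinase gene PIM1, named after its values were seen, had an adjusted p of 0.0575 (log2 0.66, edgeR). With GC and length trends removed 9 of the 12 rose, beside 22.2% of 8834 genes, the 4 added being PIM1, PIM2, BCL2L1 and MYC, named after their values were seen.

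Counting each pathway gene outside the 8 once, 47 of 79 genes were tested, 23 rose and 4 fell, beside 26.4% called higher and 23.2% lower among all genes. A gene entered when 1 of its rows had a mean RPKM of at least 1, and low receptors with many rows missed that. Genes low in sh-luc could also enter through sh-IUR-5 alone, so the counts of risers are not fully independent of the filter. How many did so was not counted. With a summed RPKM of at least 1 as the filter, added after seeing the data, 14 receptors were tested, 4 rose and 3 fell, beside 47.8% of 10392 genes called, 24.8% higher and 22.9% lower. The 2 added were named after their values were seen. IL6ST, the gp130 chain that binds JAK1, had 1.02, 0.709 and 0.625 RPKM in sh-luc and 3.76, 2.17 and 3.20 in sh-IUR-5 (log2 1.60 ± 0.22 SE, adjusted p = 0.000157, edgeR). Its mean was 0.786 in sh-luc and 3.05 in sh-IUR-5, so it met the filter only through sh-IUR-5. Its rise, and its place among the 4, are therefore not independent of the filter. LIFR, which pairs with gp130, had 1.46, 1.58 and 1.55 RPKM in sh-luc and 5.14, 4.32 and 4.35 in sh-IUR-5 (log2 1.39 ± 0.11 SE, adjusted p = 1.4e-05, edgeR). Both were far above the control range in every sh-IUR-5 library. Of the reference genes, ACTB did not pass (log2 0.044, adjusted p = 0.588) and GAPDH was called lower in edgeR (log2 -0.16, adjusted p = 0.0489). Its summed RPKM, which is scaled to total reads, was 3680 ± 183 in sh-luc and 3714 ± 43.7 in sh-IUR-5, so that its direction turned with the scale.

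**Figure D5:**
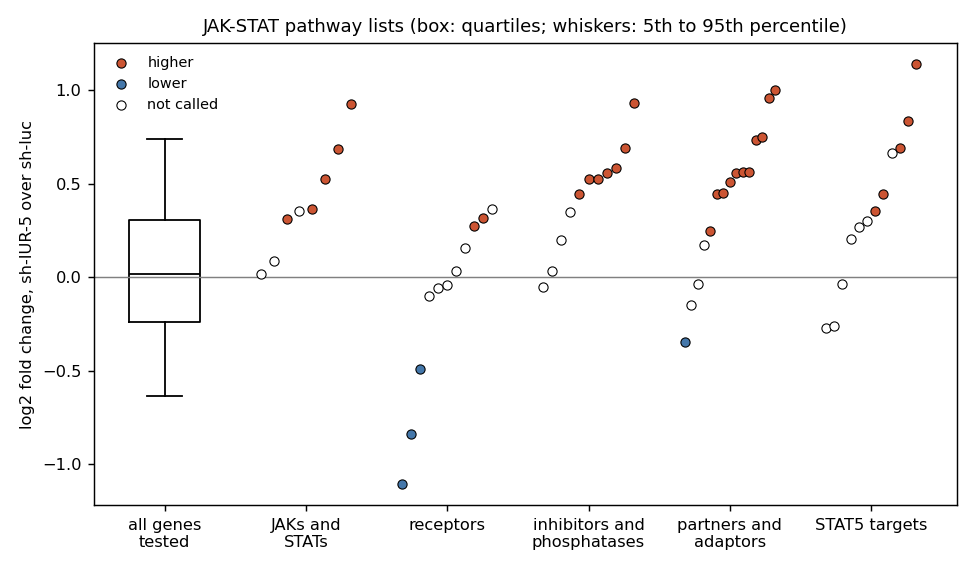
Log2 fold change of sh-IUR-5 over sh-luc for all genes tested (box of quartiles with whiskers at the 5th and 95th percentile) and for each tested gene of the JAKs and STATs and of 4 pathway lists. Filled points passed the edgeR test, in red when higher and blue when lower. Inhibitors and partners lie mostly above 0, and receptors on both sides of it.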

How the data were processed

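Total RNA of 6 libraries of K562 cells was sequenced by the authors. Per the labels, the processing used CASAVA 1.8, Trimmomatic 0.32, Bowtie2 2.1.0 and SAMtools 0.1.19 with hg38. The deposited table holds raw read counts per RefSeq protein accession and the authors' RPKM values, which equal reads divided by row length and library total in all 109018 rows within a relative tolerance of 1e-06. The authors' comparison table (pooled reads, fold changes, p and q values) was not used. Strand and the treatment of reads that match several rows are not given in the sources used here. Symbols were matched to 64.7% of rows, which hold between 83.9% and 84.8% of the reads, and a member's rows without a match are not in its sum.

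Counts were summed per gene. Genes with a row of mean RPKM of at least 1 were fitted in edgeR 4.0.16 (R 4.3.3), with TMM factors between 0.927 and 1.10, on all 6 libraries, with single rows fitted likewise. DESeq2 1.42.0 and limma 3.58.1 (on log2 of RPKM plus 0.1 or 1) were alternatives, and mgcv 1.9.3 gave the GC and length trends, with coding GC content from GENCODE 44 for 98.8% of genes tested. The steps were tested on simulated data. The biological coefficient of variation was 8.37% over all genes. All members are named, with the 3 largest called rises and falls of each other list. Members and lists were chosen with earlier results of these data known. Results for some genes of these lists are not reported here.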

Additional observations from a re-analysis of the deposited data

How the results depend on the processing

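JAK1, JAK2 and STAT5B passed with the same direction under every alternative run (24, 24 and 25), with log2 fold changes of 0.65 to 1.13, 0.40 to 0.86 and 0.36 to 0.70. STAT3 lost its call in 6 alternatives (log2 0.19 to 0.54 over all), STAT5A in the 2 that removed the length trend alone, and STAT2 passed in 9. Leaving out 1 library gave 5 to 6 members higher, 0 lower, 19 to 27 rows higher, 20 to 22 other pathway genes higher and 4 to 7 lower, the 7 without sh-IUR-5 library 1. A minimum row RPKM of 5 left 3 members (2 higher), 11 rows (7 higher) and 25 pathway genes (12 higher, 2 lower). It left 5496 genes in all (1496 higher, 1373 lower), since fewer were tested. Removing the length trend left 3 members higher. Limma called 3620 genes higher and 1106 lower with a pseudocount of 0.1 and 3626 and 1110 with 1. Deviations from the group mean correlated between the groups at 0.47 for replicate number 1, 0.19 for number 2 and -0.019 for number 3. Libraries 1 of the groups thus varied together to some extent, and the main fit held no term for replicate or series. With the number as a block 6 members were higher and 0 lower, and the block with the length trend removed gave 3 higher, TYK2 lower (log2 -0.20, adjusted p = 0.00864, edgeR) and 2 rows lower. The block with GC and length trends removed gave 7 pathway genes lower. TYK2 changed sign with DESeq2 size factors (-0.0038), in DESeq2 (-0.0040), without a filter (-0.0098), without sh-luc library 2 (-0.030) or sh-IUR-5 library 1 (-0.10), with the length trend removed (-0.20, and -0.20 with the block), with GC and length removed (-0.054, and -0.055 with the block) and with the summed filter (-0.018) and in libraries 2 and 3 alone (-0.052). Over the libraries left out in turn TYK2 reached from -0.10 to 0.080 and STAT6 from -0.11 to 0.18. STAT6 changed sign without sh-IUR-5 library 1 (-0.11), with length removed (-0.088, with the block -0.097) and with GC and length removed (-0.00076, with the block -0.0075) and in libraries 2 and 3 alone (-0.011). The cause of these shifts was not tested. With libraries 2 and 3 of a group, which the labels give 1 series number, summed, 5 members passed, with the series as a term 6. The alternatives on GC content, the summed filter and the label libraries 2 and 3 were chosen after seeing the data. Shared sequence limits the STAT5 values, and low read numbers those of STAT3 and STAT6.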
